A study of Homo sapiens with 18 samples.

Results

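The 78 genes described here code for the proteins of the cytosolic ribosome in PC9, an established human lung adenocarcinoma line that depends on mutant EGFR. They were taken from the gene table by name: symbols of the RPL and RPS series with an optional A, X or L, together with RPLP0, RPLP1, RPLP2 and RPSA. Pseudogenes and RPS6 kinases were left out, and at least 1000 summed reads were required over the 18 libraries. Of 80 rows with such a name among 30727 gene identifiers, 78 passed, 47 of the large (60S) and 31 of the small (40S) subunit. RPL10L with 0 reads and RPL3L with 55.6 reads lay below the limit, and the lowest genes above it were RPS26 (20579 reads), RPS27L (44097 reads) and RPL39L (51123 reads). RPS28 was not analysed here. All 78 passed the expression filter of the fit.

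The study followed PC9 cells under lethal drug exposures, in 6 groups of 3 libraries. The group DTP_TSA held drug-tolerant cells of the DTP kind that also received 50 nM of trichostatin A (TSA), an inhibitor of histone deacetylases, for 5 h. The group DTP held the survivors of 8 days in 1 µM of erlotinib, an inhibitor of the EGFR kinase. The group erlotinib_24h had the same erlotinib dose for 24 h, and carboplatin_72h had 50 µM of carboplatin, a platinum drug that crosslinks DNA, for 72 h with fresh drug daily. The group parental_TSA had 50 nM of TSA for 5 h, and parental_DMSO was the vehicle control of parental cells. All groups are states of this single line, grown in RPMI-1640 medium with serum. The labels do not say that the 3 libraries of a group came from separate cultures, and the p-values speak only for the variation among these libraries, which may be technical. DTP cells are the part of a population that outlived the drug, and in such bulk RNA a change in which cells are present cannot be told apart from a change of RNA per cell.

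Ribosomal protein genes are transcribed at high rates, and their messengers are among the most abundant in a growing cell. As background, most of these messengers start with a C followed by a run of pyrimidines, the 5′ terminal oligopyrimidine (TOP) motif, through which LARP1 and mTORC1 couple their translation and stability to growth signals. Making ribosomes also takes RNA polymerase I, which transcribes the ribosomal RNA precursor, and a large set of nucleolar assembly factors, many of them MYC targets.

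Gene reads ran from 32139343 in the library DTP_TSA a to 128293531 in parental_TSA c. A pair of libraries stood apart. In DTP_TSA a there were 99.9 spike-in reads per 100 gene reads, against 0.321 to 0.786 in the other libraries, and its highest correlation with another library of its group was 0.939. In parental_TSA a that correlation was 0.985 (0.993 or more in the remaining libraries), and mitochondrial genes took 5.31% of gene reads, against 3.88% and 3.50% in its group's other libraries. Mitochondrial genes also took 6.28 to 6.77% in erlotinib_24h and 5.94 to 6.26% in carboplatin_72h libraries, against 4.08 to 4.35% in parental_DMSO libraries, and the part of this in the ribosomal protein shares was not tested. Counts of the 78 genes and of the lists that rest on these libraries are also given without them. Summed over 5 epithelial markers (EPCAM, KRT8, KRT18, KRT19, CDH1) levels were 3183 to 6935 CPM, none of the 5 was at 0 in any group, and 4 leukocyte markers summed to at most 1.85 CPM. EGFR, the marker taken for the line, had 935 to 1052 CPM in parental_DMSO and 92.0 to 491 CPM in parental_TSA libraries. It had 318 to 620 CPM in the libraries of the remaining groups. Summed levels of 5 fibroblast markers were 24.1 to 28.1 CPM in DTP and 4.25 to 4.29 CPM in parental_DMSO libraries, with 3 of the 5 at 0 in parental_DMSO cells. Those of 3 endothelial markers were 109 to 115 CPM in erlotinib_24h and 15.8 to 16.8 CPM in parental_DMSO libraries, none at 0. Their part in the results below was not tested. The marker sums above are CPM without TMM scaling. Levels of genes below are CPM, reads of a gene scaled to a fixed library total, with library sizes scaled by TMM. They are not divided by transcript length, so they are compared between groups and not between genes. Changes are log2 ratios of these levels ± SE from one fit of all libraries, and a gene is called when its adjusted p is under 0.05.

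Most of these genes have a run of pyrimidines at their annotated start, as counted after the examples. A window of 28 bases is printed for 8 of them, 10 bases before the annotated start and 18 from it, with the longest run of C and T that begins within 10 bases of the start in capitals. They were chosen to show runs of different length in genes whose values are given below, together with 2 genes that lack a run.
RPL39: ccgccagCTTCCCTCCTCTTCCTTTCTC
RPLP2: tcggcgCCTTCCTTTTCCTCCCTgtcgc
RPL13A: aaaCCTCCTCCTTTTCCaagcggctgcc
RPS6: gaagttggCCCTCTTTTCCgtggcgcct
RPS27: cgctttcgCTCCTTTCCggcggtgacga
RPS3A: cccacttccgCCCTTTTggctctctgac
RPL3: gccgaccggCCTCTaccggcgggatttg
RPS27L: gatgccgagcgcagatcgCTTgcagctt
The sequences are RefSeq's on GRCh38.p14. RPS27 lies at chr1:153990752-153990779 (plus strand) and its paralog RPS27L at chr15:63157460-63157487 (minus strand). RPL13A lies at chr19:49487598-49487625 (plus strand), RPL39 at chrX:119791613-119791640 (minus strand) and RPLP2 at chr11:809957-809984 (plus strand). RPS6 lies at chr9:19380219-19380246 (minus strand), RPS3A at chr4:151099618-151099645 (plus strand) and RPL3 at chr22:39319606-39319633 (minus strand). RPS27 has a run of 9 pyrimidines across its start, and the longest run near the RPS27L start has 3. The RPL39 run is the longest of the 8, with 22 bases that reach past the end of the window, and RPL3 has 5.

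Promoter sequences matched 62 of the 78 genes. A run of at least 6 pyrimidines (C or T on the coding strand) that began within 10 bases of a listed start was present in 56 of the 62 (90.3%), against 29.2% of the 27305 genes of the promoter table and 30.7% of its 15842 protein-coding genes. A C exactly at the start followed by 4 pyrimidines was present in 46 of the 62 (74.2%), against 5.14% of all genes of the table. Among 16 matched genes of other known TOP messengers, such as elongation factors, 14 had the run (87.5%). It was present in 5 of 29 ribosome assembly factors (17.2%) and in 16 of 69 mitochondrial ribosomal protein genes (23.2%). The 6 matched genes without it were RPL17, RPL3, RPL6, RPS27L, RPS29 and RPS4X. These are matches of letters near annotated starts, and no start was measured here.

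The 78 genes together took 4.04%, 4.18% and 4.09% of gene reads in DTP_TSA cells and 4.40%, 4.30% and 4.38% in DTP cells. Their share was 6.29%, 6.21% and 6.14% in erlotinib_24h cells and 6.36%, 6.34% and 6.35% in carboplatin_72h cells. It was 9.86%, 7.37% and 6.54% in parental_TSA cells and 6.00%, 5.83% and 5.81% in parental_DMSO cells. DTP and DTP_TSA libraries were all below every other library, and all libraries of the remaining treatments were above those of parental_DMSO. The mean share was 4.36 ± 0.0573% in DTP cells and 5.88 ± 0.101% in parental_DMSO cells (SD, n = 3 each), a log2 ratio of -0.43. DTP against erlotinib_24h cells gave -0.51, and DTP_TSA against DTP cells gave -0.088. Erlotinib_24h, carboplatin_72h and parental_TSA cells gave 0.080, 0.11 and 0.43 against parental_DMSO cells. Without parental_TSA a the last ratio was 0.24. With 3 libraries a group an exact two-sided permutation test cannot go below p = 0.10, so these ratios are given with their spread only.

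Since the amount of ERCC spike-in RNA followed the number of cells, reads per spike-in read give a scale per cell put into the preparation. On it the 78 genes gave 7.98, 8.10 and 7.76 reads per spike-in read in DTP cells and 8.996, 8.17 and 8.30 in erlotinib_24h cells, against 11.1, 11.1 and 10.8 in parental_DMSO cells. Carboplatin_72h cells had 15.2, 19.8 and 15.8 and parental_TSA cells 12.6, 13.8 and 13.0. DTP_TSA b and c had 7.24 and 7.43, and DTP_TSA a is left out for its spike-in share. The log2 ratio to parental_DMSO was -0.47 for DTP cells, against -0.43 on the share of gene reads. For erlotinib_24h cells it was -0.38, the opposite sign to their share of gene reads, and for carboplatin_72h cells 0.62. Between DTP and erlotinib_24h cells it was -0.095. The direction at 24 h of erlotinib thus differed between the scales.

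**Figure D1:**
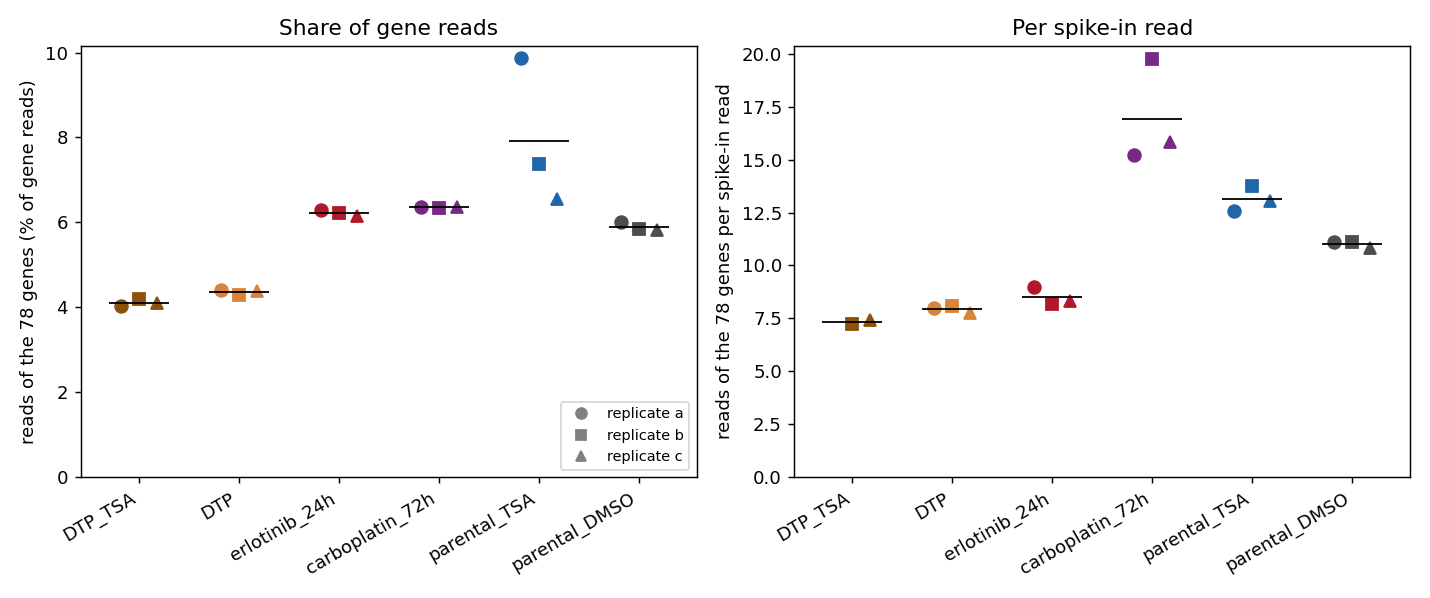
Reads of the 78 cytosolic ribosomal protein genes in each library, as a percentage of gene reads (left) and per spike-in read without DTP_TSA a (right); symbols are libraries, colours are groups and lines are group means. DTP libraries lie between 4.30% and 4.40% on the left, below parental_DMSO at 5.81% to 6.00%, while erlotinib_24h lies above parental_DMSO on the left and below it on the right.

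In DTP cells the ribosomal protein genes were lower almost throughout: 70 of the 78 fell, 1 rose and 7 were not called against parental_DMSO cells. Of all 17641 genes tested, 27.8% fell and 31.0% rose. The median log2 change was -0.58 with quartiles at -0.69 and -0.43, against a median of 0.058 over all genes. All 3 DTP libraries lay below all 3 parental_DMSO libraries for 76 genes and above them for 1, against 37.3% below and 40.6% above among all genes. Of the large subunit 42 of 47 genes fell (median -0.56), and of the small subunit 28 of 31 (median -0.62). Large-subunit reads per small-subunit read were 1.42, 1.42 and 1.43 in DTP libraries, against 1.38, 1.38 and 1.38 in parental_DMSO libraries, without overlap.

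The largest falls in DTP cells differed from each other by less than their SEs. RPL7, a large-subunit protein, had 467, 441 and 449 CPM in DTP cells and 831, 829.8 and 774 CPM in parental_DMSO cells, a change of -0.84 ± 0.10, edgeR adjusted p = 1.08e-06. RPS3A, a small-subunit protein, had 605, 581 and 595 CPM in DTP cells and 1064, 1056 and 1004 CPM in parental_DMSO cells (-0.81 ± 0.089, edgeR adjusted p = 5.65e-07). In both, every DTP library was far below the lowest control. RPL14 changed by -0.81 ± 0.10, edgeR adjusted p = 1.84e-06. RPL5 and RPL11, which with the 5S rRNA form a particle that can bind MDM2, both fell. RPL5 had 1211, 1159 and 1179 CPM in DTP cells and 2097, 2095 and 1980.3 CPM in parental_DMSO cells (-0.80 ± 0.084, edgeR adjusted p = 3.28e-07). RPL11 had 374, 356 and 362 CPM in DTP cells and 604, 588 and 545 CPM in parental_DMSO cells (-0.67 ± 0.12, edgeR adjusted p = 1.78e-04). Of the P stalk, which recruits elongation factors, RPLP0 and RPLP2 fell (log2 changes -0.57 and -0.43), and RPLP1 at -0.37 was not called. All 9 genes of the rim of the exit tunnel fell, with a median of -0.66, and 12 of 13 genes of the 40S head, with a median of -0.57.

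The 7 genes that were not called had negative changes from -0.38 to -0.066. RPS15, RPS27, RPL15, RPL28, RPL36 and RPLP1 were among them. RPL28 had 549, 561 and 566 CPM in DTP cells and 576, 548 and 631 CPM in parental_DMSO cells, and its groups overlapped. The single gene that rose was RPS27L, a paralog of RPS27 known as a target of p53. RPS27L had 40.3, 38.3 and 38.7 CPM in DTP cells and 16.3, 15.6 and 16.03 CPM in parental_DMSO cells (1.29 ± 0.13, edgeR adjusted p = 2.94e-07). Its DTP libraries were all far above the highest control. RPS26 at -0.87 had the lowest change, but its reads are few for such a gene and near-identical copies could have taken part of them, so its values are uncertain. The counts of calls in DTP cells stayed between 62 and 76 when each library was left out, and with spike-ins as library sizes, where the median of all genes is 0.16, 68 fell and 1 rose.

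**Figure D2:**
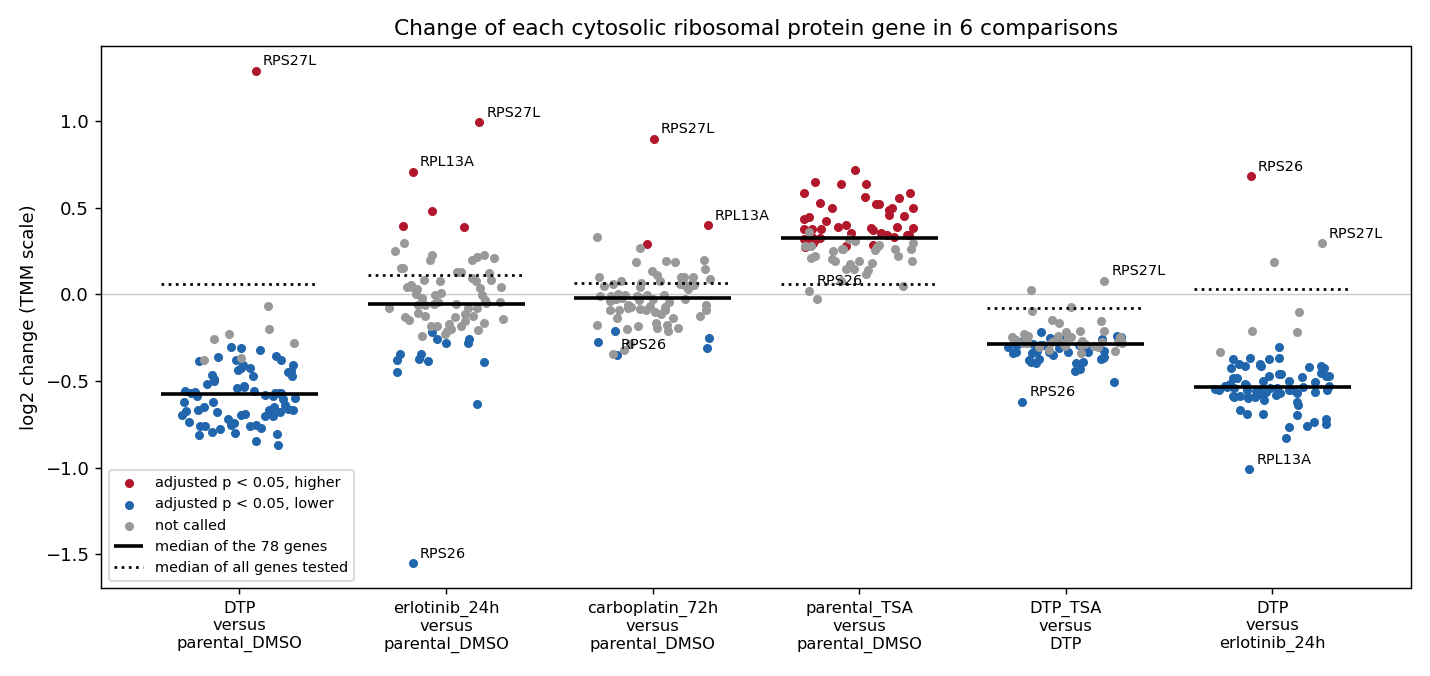
Log2 change of each of the 78 genes in 6 comparisons, coloured by call, with the median of the 78 (solid line) and of all genes tested (dotted line). In DTP against parental_DMSO cells the 78 have a median of -0.58 and RPS27L stands alone at 1.29; at 24 h of erlotinib the median is -0.055.

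After 24 h of erlotinib, at the same dose, the 78 genes did not move as a block on the TMM scale. With spike-ins as library sizes 61 of them fell, as given further below. On the TMM scale 14 fell, 5 rose and 59 were not called against parental_DMSO cells, with 32.7% of all genes falling and 36.6% rising. The median change was -0.055, and that of all genes was 0.11. Groups were apart for 55 of the 78, with 34 below and 21 above, against 38.9% and 44.5% of all genes. Single genes moved in either direction. RPL13A, which is also known as part of a complex that holds back translation after interferon, had 2605, 2599 and 2586 CPM in erlotinib_24h cells and 1616, 1553 and 1600.1 CPM in parental_DMSO cells (0.71 ± 0.12, edgeR adjusted p = 3.89e-05). All erlotinib libraries lay well above the controls. RPL3, which lies near the peptidyl transferase centre, had 1830.0, 1822 and 1779 CPM in erlotinib_24h cells and 1409.7, 1368 and 1372 CPM in parental_DMSO cells (0.39 ± 0.060, edgeR adjusted p = 1.86e-05). RPL28 rose by 0.48 and RPS9 by 0.40 on the log2 scale (edgeR adjusted p = 0.00822 and 0.00638).

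RPS27L was the highest riser here too, with 33.1, 31.8 and 30.6 CPM in erlotinib_24h cells and 16.3, 15.6 and 16.03 CPM in parental_DMSO cells (0.99 ± 0.13, edgeR adjusted p = 4.00e-06). Those that fell moved by less, apart from RPS26. RPL38, whose product is known to favour translation of Hox messengers in mice, had 207, 202 and 193 CPM in erlotinib_24h cells and 279, 276 and 268 CPM in parental_DMSO cells (-0.45 ± 0.15, edgeR adjusted p = 0.0113). RPL39L, a paralog of RPL39 known from the testis, changed by -0.63 ± 0.14, edgeR adjusted p = 7.10e-04, and RPL14 and RPL35 by -0.39 and -0.39. RPS26, with the doubt named above, was listed at 7.11, 6.65 and 7.24 CPM in erlotinib_24h cells and 21.3, 19.1 and 21.1 CPM in parental_DMSO cells. With spike-ins as library sizes, where the median of all genes is -0.23, 61 of the 78 fell and 2 rose (median -0.42): RPS27L at 0.63, edgeR adjusted p = 3.12e-04 and RPL13A at 0.35, edgeR adjusted p = 0.00362. The call count of 19 was 45 without parental_TSA a, 29 without parental_TSA c and 49 without the a libraries of both TSA groups. All groups share one estimate of the spread.

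Set against 24 h of erlotinib, the DTP state after 8 days was again lower: 71 of the 78 fell, 1 rose and 6 were not called, with 24.8% of all genes falling and 30.5% rising. The median change was -0.53, with 0.033 for all genes, and 75 of the 78 had all DTP libraries below all erlotinib_24h libraries (36.8% of all genes). RPL13A had 1273, 1286 and 1313 CPM in DTP cells and 2605, 2599 and 2586 CPM in erlotinib_24h cells (-1.01 ± 0.12, edgeR adjusted p = 1.26e-06), the largest fall of the set. RPL3 had 1035, 1016 and 1013 CPM in DTP cells and 1830.0, 1822 and 1779 CPM in erlotinib_24h cells (-0.83 ± 0.060, edgeR adjusted p = 3.71e-09). On the TMM scale both genes, high at 24 h, were below parental_DMSO levels in DTP cells. With spike-ins as library sizes RPL3 was not called higher at 24 h. RPLP0, RPL9 and RPS6, the last being the substrate of the S6 kinases, changed by -0.77, -0.76 and -0.75. RPS27L at 0.30 ± 0.13, edgeR adjusted p = 0.0661 was not called. The calls changed with the scale. With spike-ins as library sizes, 8 fell and 4 rose (RPL35, RPS26, RPS27L and RPL39L) with a median of -0.082 for the 78 against 0.48 for all genes, and RPL39, RPS4X and RPS27A had positive values of 0.085, 0.044 and 0.15. RPL13A still fell there, by 0.56 on the log2 scale. The DTP libraries here are those compared with parental_DMSO above, and the erlotinib libraries those of the 24 h comparison.

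Carboplatin for 72 h left most of the 78 genes without a call: 5 fell, 3 rose and 70 were not called, with 28.6% of all genes falling and 30.3% rising. The median was -0.022, and the median of all genes 0.064. RPS27L rose, with 30.8, 30.8 and 27.8 CPM in carboplatin_72h cells and 16.3, 15.6 and 16.03 CPM in parental_DMSO cells (0.90 ± 0.13, edgeR adjusted p = 2.01e-05). RPL13A had 2085, 1955 and 2241 CPM in carboplatin_72h cells and 1616, 1553 and 1600.1 CPM in parental_DMSO cells (0.40 ± 0.12, edgeR adjusted p = 0.00743), and RPS9 changed by 0.29. The groups did not overlap for any of these 3. RPS7, which is known to bind MDM2, had 1268, 1359.6 and 1289.6 CPM in carboplatin_72h cells and 1698, 1684 and 1616 CPM in parental_DMSO cells (-0.35 ± 0.11, edgeR adjusted p = 0.0124). RPL3, RPL5, RPL22 and RPS6 fell with log2 changes of -0.31, -0.28, -0.25 and -0.21. On the TMM scale RPL3 thus fell here and rose at 24 h of erlotinib, each against the same controls. Groups were apart for 43 of the 78 (26 below, 17 above), against 35.8% and 39.7% of all genes.

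The carboplatin calls depend on the libraries and the scale. They numbered 35 without parental_TSA a, 15 without parental_TSA c, and 5 without parental_DMSO a or b or carboplatin_72h a or c. Without the a libraries of both TSA groups 24 fell and 13 rose, and the share of all genes called in that fit is not given here. With spike-ins as library sizes 77 rose, with a median of 0.63 for the 78 and of 0.72 for all genes, so the 5 genes that fell all had positive values there, from 0.30 for RPS7 to 0.44 for RPS6. The gene not called was RPS26, at 0.30, edgeR adjusted p = 0.0535.

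With all libraries on the TMM scale, the median of the set rose with TSA for 5 h in parental cells and fell in DTP cells. Without the a libraries of both TSA groups, the parental median was 0.084, and that of all genes 0.051. In parental_TSA cells 46 of the 78 rose and none fell against parental_DMSO cells, with 30.8% of all genes rising and 27.4% falling. Neither DESeq2 nor an unadjusted edgeR p under 0.05 gave a fall, and the median was 0.33, with 0.059 for all genes. The largest rises were those of RPLP2 and RPLP1, the acidic proteins of the P stalk, while RPLP0, its base, rose by 0.32. RPLP2 had 638, 354 and 309 CPM in parental_TSA cells and 272, 254 and 263 CPM in parental_DMSO cells (0.72 ± 0.18, edgeR adjusted p = 0.00221). RPLP1 had 1130.1, 669.8 and 578 CPM in parental_TSA cells and 520.2, 479 and 520.4 CPM in parental_DMSO cells (0.65 ± 0.17, edgeR adjusted p = 0.00411). In both, library a was far above b and c of its group, and b and c were still above all controls. RPS29, RPL39L and RPL13A rose by 0.64, 0.64 and 0.58 on the log2 scale. RPL5, with 2520.4, 2143 and 1855 CPM in parental_TSA cells and 2097, 2095 and 1980.3 CPM in parental_DMSO cells, overlapped between the groups and was not called (0.079 ± 0.083, edgeR adjusted p = 0.437). Of the 78, 19 had all TSA libraries above all controls (33.4% of all genes), and none had all below (30.6%).

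The count moved with single libraries, parental_TSA a above all. Without it 16 of the 78 were called, all rising, and without parental_TSA c 75; without parental_DMSO b or c the counts were 26 and 23. Without the a libraries of both TSA groups, 23 rose and 1, RPL6, fell, with a median of 0.084. In that fit 6581 of 18065 genes rose and 5942 fell, with a median of 0.051, so the share of the 78 that rose was below that of all genes. RPLP2 was then at 0.33, edgeR adjusted p = 4.40e-04 and RPL13A at 0.35, edgeR adjusted p = 2.60e-06. RPLP1, RPS29 and RPL39L were still called, at 0.30, 0.26 and 0.37. With only both groups of the comparison in the fit, 7 rose, and with spike-ins as library sizes 36 rose (median 0.27, and 0.072 for all genes). Short transcripts moved alike: the 1080 tested genes outside the set with a transcript under 1000 bases had a median change of 0.34 in parental_TSA cells, and the 1115 such genes tested without the a libraries one of 0.145. The part of transcript length in this result was not tested.

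In DTP_TSA cells 40 of the 78 fell and none rose against DTP cells, with 30.7% of all genes falling and 25.6% rising. Neither DESeq2 nor an unadjusted edgeR p under 0.05 gave a rise. The median was -0.29, with -0.077 for all genes, and the quartiles of -0.33 and -0.25 were the closest of the 6 comparisons. The log2 ratio of their share of gene reads was -0.088. TMM factors were 1.18, 1.12 and 1.14 in DTP_TSA libraries and 0.993, 0.996 and 0.997 in DTP libraries. The part of this scaling in the fall was not tested. RPL6 had 547, 614 and 594 CPM in DTP_TSA cells and 842, 812 and 837 CPM in DTP cells (-0.51 ± 0.095, edgeR adjusted p = 2.32e-04). RPL27A had 262, 277 and 269.8 CPM in DTP_TSA cells and 366, 357 and 374 CPM in DTP cells (-0.44 ± 0.13, edgeR adjusted p = 0.00830). RPL10, whose product reaches to the P site, and RPL13A changed by -0.43 and -0.40, and RPS26 by -0.62. For 74 of the 78 all DTP_TSA libraries were below all DTP libraries, against 38.2% of all genes, and for none were they above (27.3%). RPS27L, with 35.4, 45.8 and 42.5 CPM in DTP_TSA cells and 40.3, 38.3 and 38.7 CPM in DTP cells, overlapped between the groups and was not called.

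The DTP_TSA call count was 74 without parental_TSA a and 61 without parental_TSA c. It was 19 without DTP_TSA a, 25 without DTP_TSA c, 21 without DTP a and 23 without DTP c. Without the a libraries of both TSA groups 75 fell and 1, RPS27L, rose, with a median of -0.26. The share of all genes called in that fit is not given here. Other tools gave fewer calls: 16 with DESeq2, 15 with its size factors in edgeR and 5 under a filter of 1 CPM in 3 libraries. With spike-ins as library sizes, where the median of all genes is 0.11, 1 fell (RPL13A, at -0.28, edgeR adjusted p = 0.0451) and the median of the 78 was -0.11.

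The difference between both TSA effects, tested as an interaction, was negative for all 78 genes and called for 74 of them, each lower; 23.0% of all genes were called lower and 15.3% higher. The median difference was -0.62, with -0.11 for all genes. Tested genes outside the set with a transcript under 1000 bases had a median of -0.53, and the part of transcript length was not tested. RPL13A had 1014, 966 and 959.5 CPM in DTP_TSA cells against 1273, 1286 and 1313 CPM in DTP cells, and 3084, 2139.6 and 1923 CPM in parental_TSA cells against 1616, 1553 and 1600.1 CPM in parental_DMSO cells, a difference of effects of -0.98 ± 0.16, edgeR adjusted p = 2.00e-04. TSA libraries were thus below those of DTP cells and above those of parental_DMSO cells without overlap. RPL13, RPS29, RPLP2 and RPLP1 followed with -0.97, -0.96, -0.94 and -0.86. Without the a libraries of both TSA groups 75 were called lower with a median of -0.34. With spike-ins as library sizes 16 were called, all lower, with a median of -0.37. The shares of all genes called in these fits are not given here, so these counts stand without that background.

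Inside the set, genes moved by unlike amounts, which a second fit showed by scaling each library to the 78 genes themselves. A change in it says that a gene took a larger or smaller share of the ribosomal protein messengers. In DTP against parental_DMSO cells 18 genes were higher and 14 lower relative to the set (59.1% of all genes were called in this fit). At 24 h of erlotinib 21 were higher and 16 lower (62.3%), and with carboplatin 12 and 9 (48.1%). In parental_TSA cells 12 were higher and 5 lower (50.2%), in DTP_TSA against DTP cells 2 and 3 (45.5%), and in DTP against erlotinib_24h cells 10 and 10 (59.2%). In each comparison the share of the 78 genes called was below the share of all genes. The scaling centres the 78 genes by construction, so this order of the shares is no result about them.

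RPS27L was higher relative to the set in all 6 of these comparisons, by 1.88 in DTP cells, 1.06 at 24 h of erlotinib and 0.94 with carboplatin, each against parental_DMSO. It was higher by 0.26 in parental_TSA cells, by 0.36 in DTP_TSA against DTP cells and by 0.82 in DTP against erlotinib_24h cells. RPL28 was higher in DTP cells (0.52 ± 0.082, edgeR adjusted p = 4.46e-05), at 24 h of erlotinib (0.55 ± 0.083, edgeR adjusted p = 2.11e-05), with carboplatin (0.37 ± 0.082, edgeR adjusted p = 0.00162) and in parental_TSA cells (0.21 ± 0.082, edgeR adjusted p = 0.0466). RPL13A, RPL15, RPS9, RPS27 and RPS20 were also higher relative to the set in DTP, erlotinib_24h and carboplatin_72h cells. In DTP cells RPL13A was at 0.29, RPL15 at 0.36, RPS9 at 0.27, RPS27 at 0.33 and RPS20 at 0.21. These 3 comparisons share their controls, so their agreement is not independent.

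Lower relative to the set in DTP cells were RPL7 (-0.25 ± 0.061, edgeR adjusted p = 0.00212), RPS3A (-0.22 ± 0.065, edgeR adjusted p = 0.00782), RPL14 (-0.22 ± 0.067, edgeR adjusted p = 0.0107) and RPL5 (-0.21 ± 0.069, edgeR adjusted p = 0.0166). At 24 h of erlotinib RPL38 (-0.38), RPL35 (-0.32), RPL14 (-0.32), RPS24 (-0.31) and RPL24 (-0.30) were the lowest after RPS26 and RPL39L. In DTP against erlotinib_24h cells RPL35, RPL38 and RPL24 were higher, at 0.42, 0.31 and 0.31, and RPL13A lower at -0.49. In DTP_TSA against DTP cells RPL6 was lower with -0.22 ± 0.058, edgeR adjusted p = 0.00564.

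The counts relative to the set moved with single libraries. In DTP cells the count was 21 without parental_DMSO b, 20 without DTP b and 50 without parental_TSA a. With carboplatin it was 13 without parental_DMSO a or carboplatin_72h a, 12 without parental_DMSO b and 38 without parental_TSA a. In parental_TSA cells it was 11 without parental_DMSO a and 9 without parental_DMSO b. In DTP against erlotinib_24h cells it was 13 without DTP a or erlotinib_24h b, 12 without DTP c and 35 without parental_TSA a. The DTP_TSA count was 3 in 13 of the fits that left out 1 library and 10 without parental_TSA a.

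**Figure D3:**
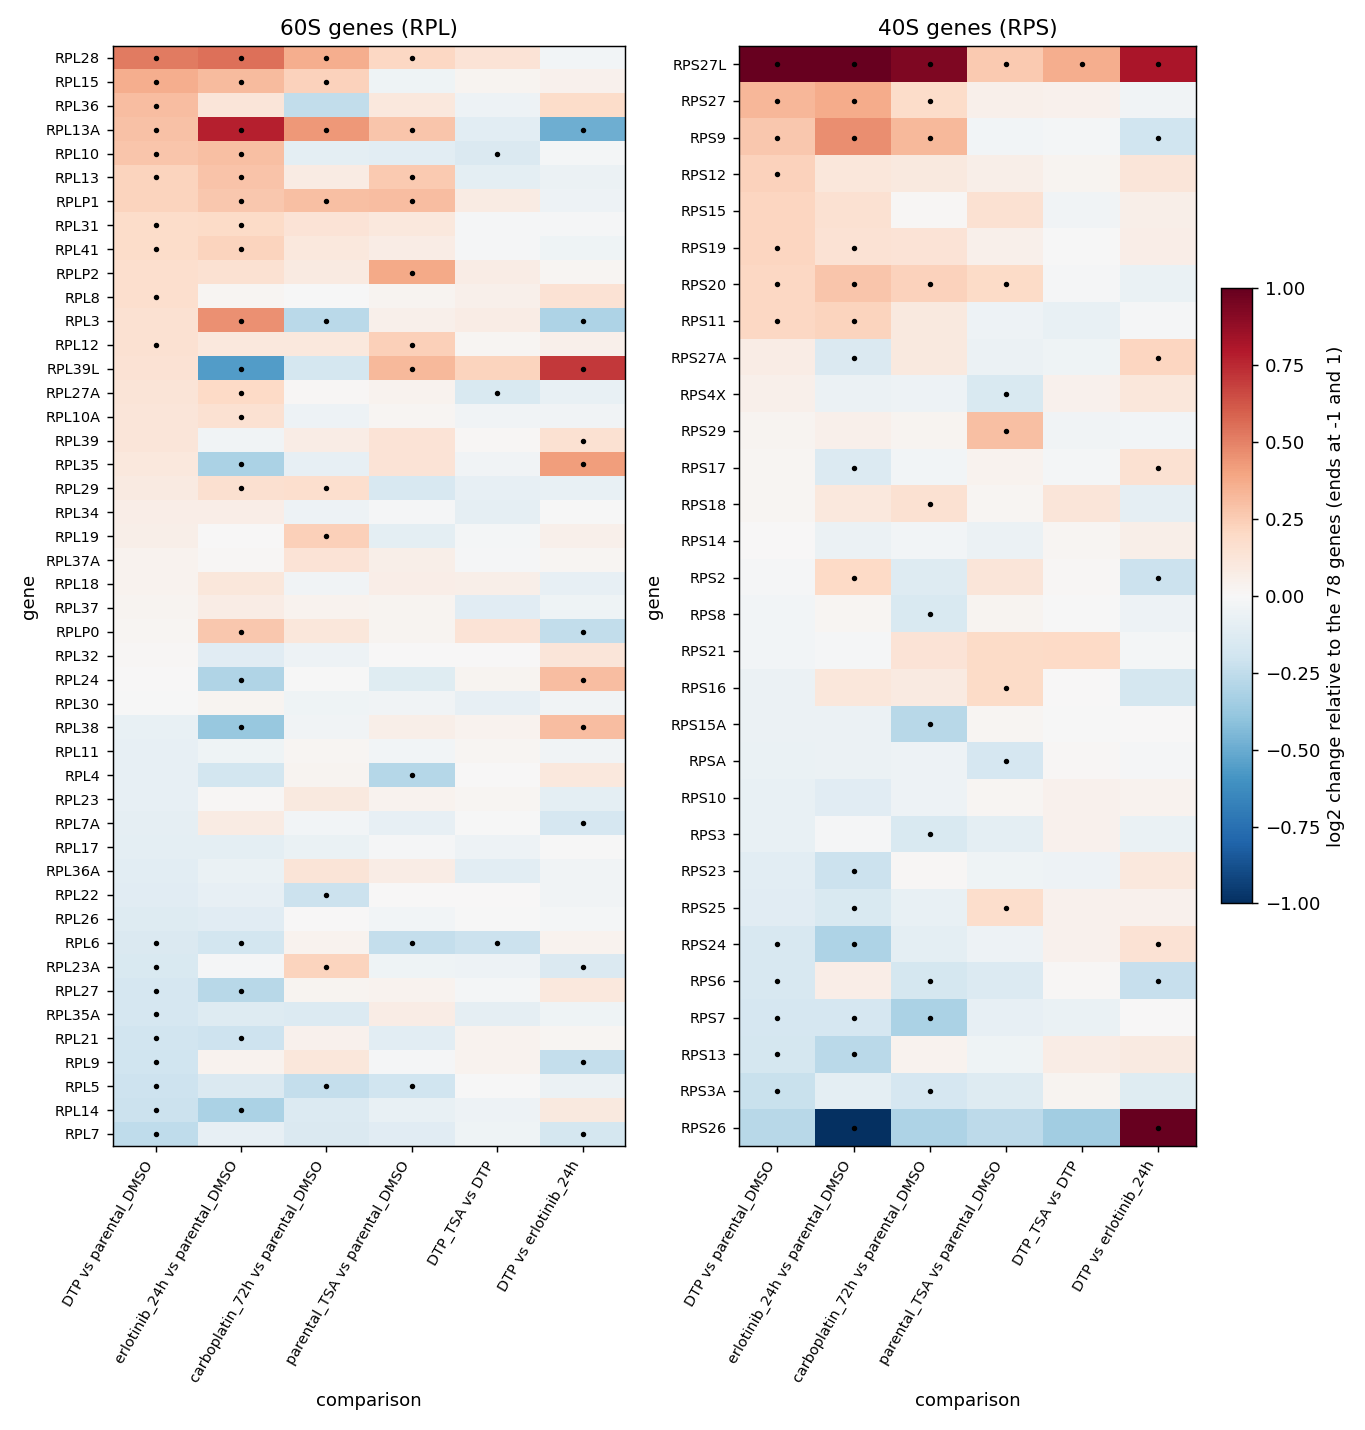
Log2 change relative to the 78 genes, by comparison, of 76 of them in the large subunit (left) and small subunit (right); a dot marks an adjusted p under 0.05, rows are ordered by the DTP change, and the colour scale ends at -1 and 1. RPS27L is above the set in all 6 columns, and RPL13A is above it at 24 h of erlotinib and below it in DTP against erlotinib_24h cells.

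Paralog pairs were a case of their own. RPS27 and RPS27L code for near-equal proteins of the small subunit. RPS27 had 428, 404 and 419 CPM in DTP cells and 507, 499 and 493 CPM in parental_DMSO cells and was not called (-0.26 ± 0.14, edgeR adjusted p = 0.128), while RPS27L rose as given above. At 24 h of erlotinib RPS27 had 641, 609 and 593 CPM, above all controls, and was not called (0.30 ± 0.14, edgeR adjusted p = 0.0717). In carboplatin_72h cells it had 555, 574 and 532 CPM (0.15 ± 0.14, edgeR adjusted p = 0.390). RPS27L libraries were above all controls in every treatment group. RPL39 had 781, 742 and 759 CPM in DTP cells and 1089, 1068 and 1009 CPM in parental_DMSO cells (-0.47 ± 0.14, edgeR adjusted p = 0.00904), and RPL39L had 26.9, 27.2 and 28.999 CPM in DTP cells and 39.4, 38.3 and 35.5 CPM in parental_DMSO cells (-0.45 ± 0.14, edgeR adjusted p = 0.0113). Both fell by like amounts in DTP cells. At 24 h RPL39L had 23.9, 24.7 and 24.3 CPM in erlotinib_24h cells, below all controls, while RPL39 at 1009.5, 978 and 956 CPM was not called (-0.11 ± 0.14, edgeR adjusted p = 0.527).

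RPL22L1, a paralog of RPL22 that the name rule leaves out, had 132, 127 and 132 CPM in DTP cells, 44.2, 41.1 and 43.9 CPM in erlotinib_24h cells and 109, 109 and 101 CPM in parental_DMSO cells. It rose in DTP cells (0.29 ± 0.12, edgeR adjusted p = 0.0458), a call lost with DESeq2, with its size factors in edgeR and with no low-count filter, and fell at 24 h of erlotinib (-1.30 ± 0.12, edgeR adjusted p = 5.51e-08). RPL22 fell in DTP cells, by 0.70 on the log2 scale. FAU, which codes for a ribosomal protein fused to a ubiquitin-like protein, fell in DTP cells (-0.39). RPS27A, a fusion to ubiquitin and one of the 78, changed by -0.51 ± 0.12, edgeR adjusted p = 0.00166 in DTP cells.

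**Figure D4:**
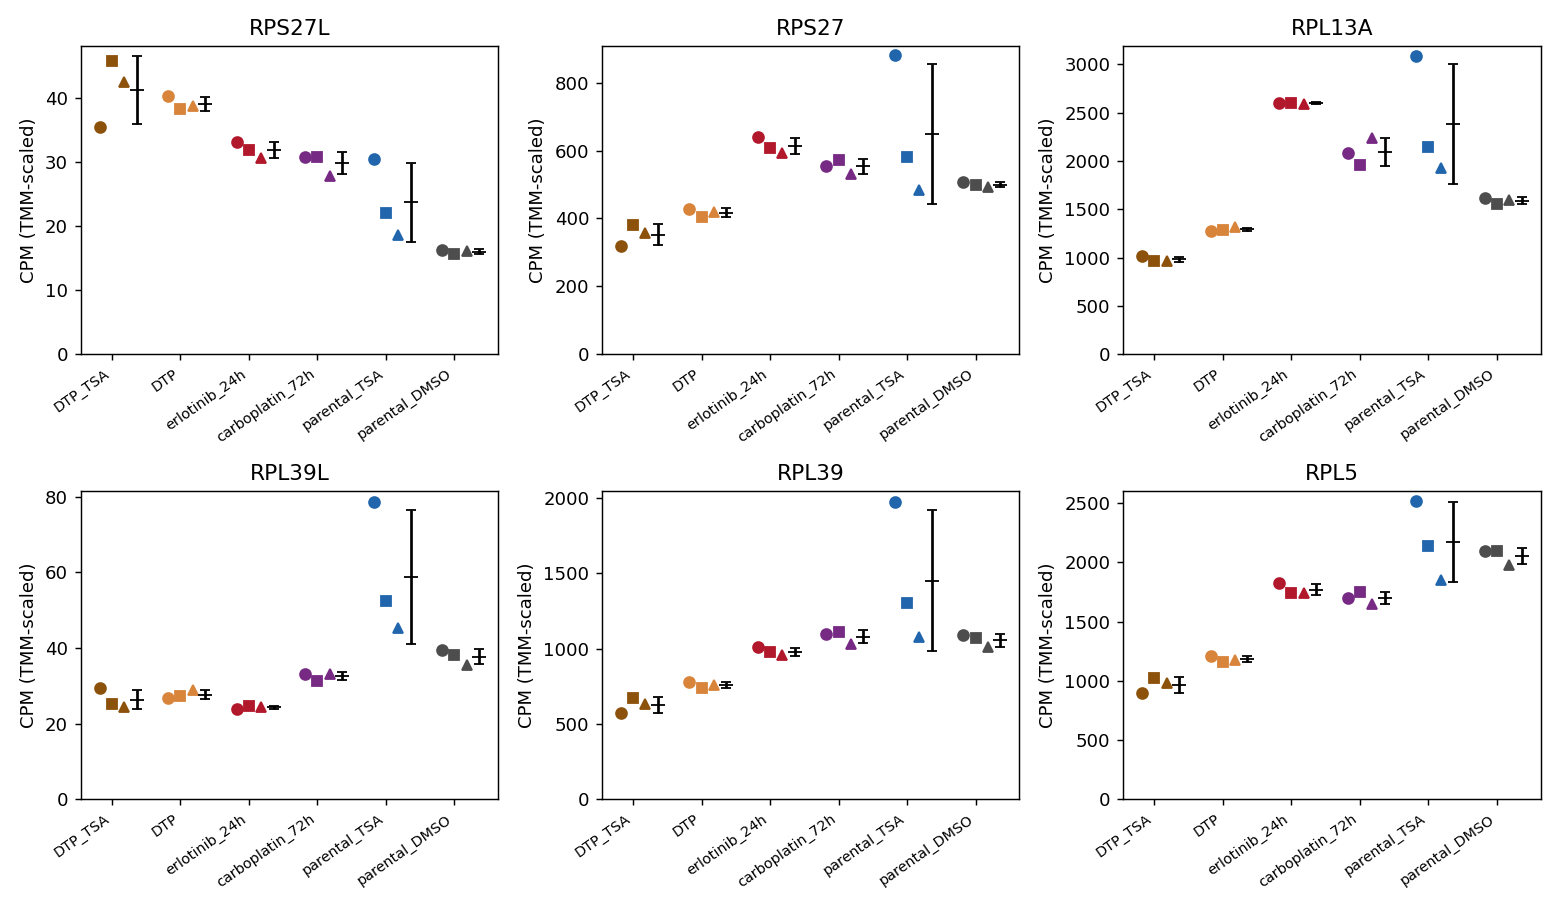
CPM (TMM-scaled) of 6 genes in each library by group; symbols are libraries a (circle), b (square) and c (triangle), and the black bars beside them are mean and SD. RPS27L lies at 38.3 to 40.3 CPM in DTP and 15.6 to 16.3 CPM in parental_DMSO libraries, whereas RPL5 is lower in DTP libraries and library a of parental_TSA is the highest of its group in all 6.

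The genes that build ribosomes fell with the ribosomal protein genes in some comparisons and without them in others; the difference between the lists was not tested. Of 36 assembly factors, all 36 fell in DTP cells (median -1.12) and all 36 at 24 h of erlotinib (median -2.04), each against parental_DMSO cells. Between 24 h and 8 days 33 of 36 rose in DTP against erlotinib_24h cells, with a median of 1.03. NOP56, a core protein of box C/D snoRNPs, had 129, 128 and 126 CPM in DTP cells, 41.0, 41.5 and 41.0 CPM in erlotinib_24h cells and 335, 326 and 321 CPM in parental_DMSO cells. Its changes were -1.36 ± 0.047, edgeR adjusted p = 2.91e-13 in DTP cells and -2.99 ± 0.050, edgeR adjusted p = 2.07e-17 at 24 h. With carboplatin 34 fell (median -0.71), in parental_TSA cells 32 fell (median -0.89), and in DTP_TSA against DTP cells 26 fell and 2 rose (median -0.58). Leaving out both a libraries, 35 fell in parental_TSA cells, and 28 fell and 2 rose in DTP_TSA cells. With spike-ins as library sizes the medians of the assembly factors were -1.03 in DTP cells, -2.40 at 24 h and 1.49 in DTP against erlotinib_24h cells. The medians of all genes there are 0.16, -0.23 and 0.48. With carboplatin the factors had a median of -0.069 on that scale, and 9 fell and 3 rose, while all genes have a median of 0.72. On that scale 13 fell and 1 rose in DTP_TSA against DTP cells (median -0.43).

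Of 16 genes of RNA polymerase I and its factors with MYC, all 16 fell in DTP cells (median -0.82), and 14 fell and 1 rose at 24 h of erlotinib (median -1.30). On the spike-in scale 10 and 14 fell. MYC had 121, 119.8 and 122 CPM in DTP cells, 73.6, 76.1 and 73.6 CPM in erlotinib_24h cells and 308, 304 and 322 CPM in parental_DMSO cells. Its log2 changes were -1.37 ± 0.068, edgeR adjusted p = 2.44e-11 in DTP cells, -2.06 ± 0.069, edgeR adjusted p = 6.41e-14 at 24 h and 0.70 ± 0.067, edgeR adjusted p = 1.31e-07 in DTP against erlotinib_24h cells. Among these 3 groups MYC was lowest at 24 h, and the ribosomal protein share was lowest in DTP cells. POLR1G, a subunit of RNA polymerase I, had 3.70, 3.43 and 3.68 CPM in erlotinib_24h cells and 92.2, 89.7 and 93.3 CPM in parental_DMSO cells (-4.67 ± 0.15, edgeR adjusted p = 5.09e-14). Of the 16 genes, 5 fell and 2 rose in DTP_TSA against DTP cells (median -0.14, and -0.077 for all genes). Leaving out both a libraries, 9 fell and 2 rose there (median -0.16), and on the spike-in scale 3 fell and 2 rose (median -0.0064). Among the 5 that fell with all libraries was UBTF, which binds ribosomal DNA. UBTF had 14.7, 16.8 and 16.03 CPM in DTP_TSA cells and 75.9, 76.5 and 77.7 CPM in DTP cells (-2.27 ± 0.071, edgeR adjusted p = 4.13e-13).

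By median on the TMM scale, other TOP messengers moved nearer to the ribosomal proteins than the assembly factors or the RNA polymerase I list did. The difference between these lists was not tested. Of 25, 20 fell in DTP cells (median -0.51), 8 fell and 7 rose at 24 h of erlotinib (median -0.059), and 17 fell in DTP against erlotinib_24h cells (median -0.41). In DTP_TSA against DTP cells 17 fell (median -0.34), and with carboplatin 9 fell and 1 rose (median -0.10). In parental_TSA cells 4 fell and 3 rose, with a median of 0.092, against 0.33 for the 78 and 0.059 for all genes. Leaving out both a libraries, 22 fell and 1 rose in DTP_TSA cells, and 7 fell and 1 rose in parental_TSA cells. On the spike-in scale 17 fell in DTP cells and 16 at 24 h (median -0.42, and -0.23 for all genes). With carboplatin 2 fell and 19 rose there (median 0.55, and 0.72 for all genes). On that scale 3 fell and 5 rose in DTP against erlotinib_24h cells (median 0.043, and 0.48 for all genes), and 3 fell in DTP_TSA cells. EEF1A1, the elongation factor that brings aminoacyl-tRNA, had 10540.2, 10166 and 10342 CPM in DTP cells, 17902, 17355 and 17483 CPM in erlotinib_24h cells and 12572, 12835 and 11964 CPM in parental_DMSO cells. It fell in DTP cells (-0.27 ± 0.052, edgeR adjusted p = 3.00e-04) and rose at 24 h (0.50 ± 0.052, edgeR adjusted p = 2.13e-07), and EEF2 rose at 24 h (0.53) and was not called in DTP cells (-0.23). Neither rise at 24 h was called with spike-ins as library sizes. LARP1, which binds the TOP motif, had 327, 335 and 317 CPM in DTP cells, 198.97, 201 and 201 CPM in erlotinib_24h cells and 557, 562 and 577 CPM in parental_DMSO cells (-1.50 ± 0.086, edgeR adjusted p = 7.81e-11 at 24 h). DDIT4, an inhibitor of mTORC1, had 40.3, 40.3 and 42.8 CPM in DTP cells, 199.18, 206 and 209 CPM in erlotinib_24h cells and 38.2, 36.1 and 35.1 CPM in parental_DMSO cells, high only at 24 h among these 3 groups. Of 22 genes of mTORC1 and TOP control, 7 fell and 3 rose in DTP cells, 9 fell and 7 rose at 24 h, and 7 fell and 9 rose with carboplatin. On the spike-in scale, where all genes have medians of 0.16, -0.23 and 0.72, these counts were 4 and 3, 13 and 2, and 1 and 15.

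Of 77 mitochondrial ribosomal protein genes, 67 fell and 1 rose in DTP cells (median -0.66), near the cytosolic set. At 24 h of erlotinib 63 fell (median -0.79), when the cytosolic set had a median of -0.055. In DTP against erlotinib_24h cells 28 rose and 10 fell (median 0.14), in parental_TSA cells 14 rose and 19 fell, and in DTP_TSA against DTP cells 3 rose and 40 fell. Leaving out both a libraries, 13 rose and 43 fell in parental_TSA cells (median -0.16), and 6 rose and 50 fell in DTP_TSA cells. On the spike-in scale 63 rose and 1 fell in DTP against erlotinib_24h cells (median 0.59), where the median of all genes is 0.48. On the same scale 8 rose and 17 fell in parental_TSA cells, and 3 rose and 12 fell in DTP_TSA cells. With only the groups compared 46 rose and 22 fell in DTP against erlotinib_24h cells. Of 14 genes of ribosome rescue and dormancy, 9 fell and 2 rose in DTP cells, and 5 fell and 1 rose there with spike-ins as library sizes. HABP4, a factor known to bind idle ribosomes, rose in DTP cells (1.08 ± 0.068, edgeR adjusted p = 5.04e-10), and SERBP1, its paralog, fell (-0.81 ± 0.050, edgeR adjusted p = 3.46e-10). ABCE1, which splits ribosomes for recycling, fell in DTP cells (-1.10) and at 24 h (-2.46).

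**Figure D5:**
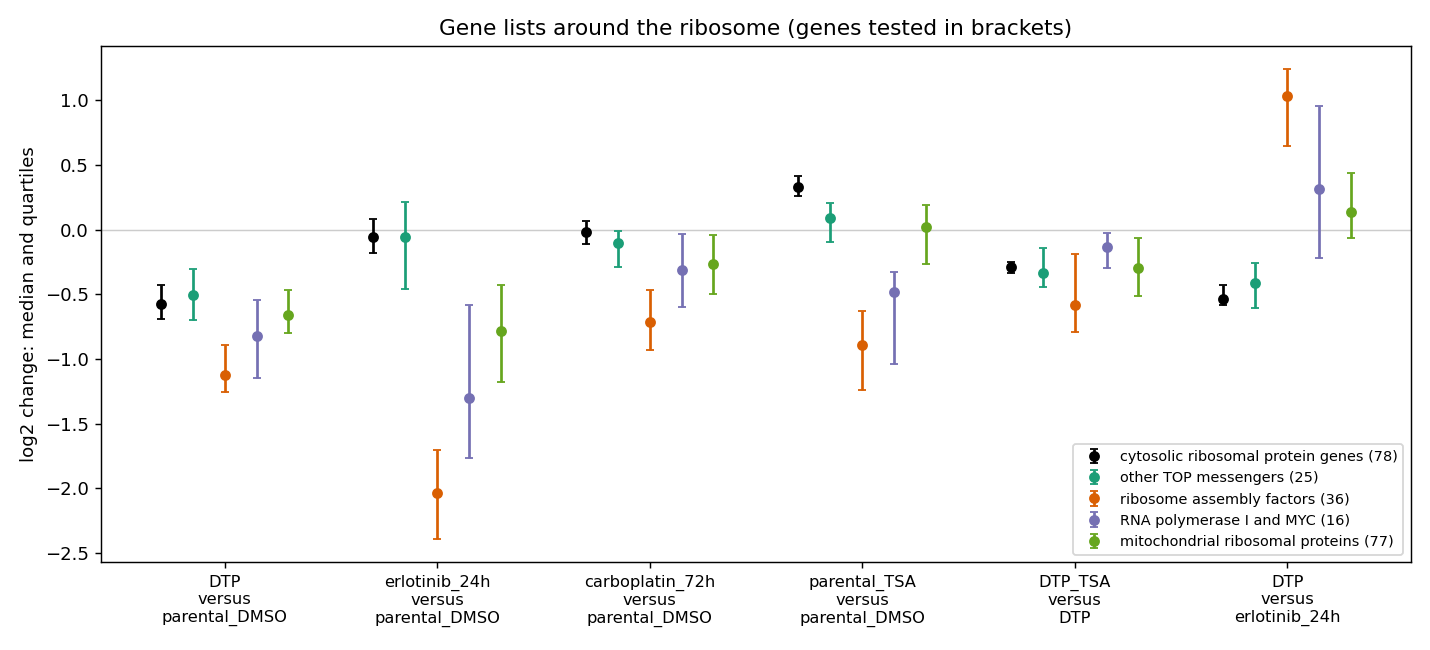
Median log2 change (points) and quartiles (bars) of 5 gene lists in 6 comparisons, with the number of genes tested in brackets. Assembly factors have medians of -2.04 at 24 h of erlotinib and 1.03 in DTP against erlotinib_24h cells, whereas the ribosomal protein genes have -0.055 and -0.53.

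The changes of the 6 matched genes without a run of at least 6 pyrimidines follow. A link between run and change was not tested, and RPL3, RPL6 and RPS4X have runs of 5, just under that limit. In DTP cells RPS27L rose, and RPL17, RPL3, RPL6, RPS29 and RPS4X fell by 0.69, 0.44, 0.74, 0.57 and 0.54 on the log2 scale. At 24 h of erlotinib RPS27L and RPL3 rose, RPL6 fell (-0.26 ± 0.095, edgeR adjusted p = 0.0242), and RPL17, RPS29 and RPS4X were not called. RPL13A and RPL28, which rose at 24 h, have runs of 14 and 13 pyrimidines, and RPL14, which fell there, has a run of 14.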

How the data were processed

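RNA of 18 libraries of PC9 cells in 6 groups of 3 was sequenced after DNase treatment and polyA selection, with ERCC spike-ins added in proportion to cells, per the labels. The deposited tables hold expected counts of reads, made by the authors with Salmon per the submitters' processing notes and not scaled between libraries. The Salmon version, genome build and annotation are not named in those sources. Beside the 18 libraries, 3 columns per table could be tied to no sample and stayed out. Groups were taken from the sample titles.

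Identifiers were matched to symbols for 27814 of 30727 rows, and those without one held 0.247% of gene reads. Counts were rounded and genes kept by edgeR's expression filter (17641). The main test was edgeR's quasi-likelihood test (version 4.0.16, with limma 3.58.1 in R 4.3.3) with TMM factors and one term per group over all libraries. It had 12 residual degrees of freedom, and the common biological coefficient of variation was 0.136. Benjamini-Hochberg adjustment ran over all genes, with a threshold of 0.05. A second fit took library sizes from median ratios over the 78 genes, all with at least 100 reads in each library. The code was tested on simulated counts.

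The 78 genes, the lists and the tests were chosen with earlier results of these data known. Per comparison up to 5 called genes in each direction were named by size of change, with a standing set of members and regulators, and up to 4 genes per list by p. In the fit relative to the set any gene past the threshold could be named. Values of a few single genes are not reported here, though they are in the counts and medians.

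Readthrough rows RPL36A-HNRNPH2, RPS10-NUDT3 and RPL17-C18orf32 hold 144602, 11633 and 2468 reads that their ribosomal genes may share, and 32 pseudogene rows hold at most 0.00837% of gene reads in a library. Alternatives were DESeq2 1.42.0, its size factors, other filters, a replicate block, fits of the compared groups only, spike-in library sizes without DTP_TSA a, and leaving out libraries. Transcript lengths are those of the shortest principal transcript in GENCODE, and promoters are RefSeq's on GRCh38.p14.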

Additional observations from a re-analysis of the deposited data

Results flagged for a closer look

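The effect of TSA differed between DTP and parental cells for 74 of the 78 genes by the interaction term, all lower in DTP cells. Of all genes tested, 23.0% were called lower and 15.3% higher. By size, the 5 leading genes had differences of -0.98 (RPL13A), -0.97 (RPL13), -0.96 (RPS29), -0.94 (RPLP2) and -0.86 (RPLP1). Without the a libraries of both TSA groups these were -0.78, -0.68, -0.58, -0.56 and -0.59, and 75 genes were called. RPL13 had 405, 408 and 408 CPM in DTP_TSA cells against 528, 527 and 543 CPM in DTP cells, and 1413, 897 and 771 CPM in parental_TSA cells against 705, 648 and 705 CPM in parental_DMSO cells. Tested genes outside the set with a transcript under 1000 bases had a median difference of -0.53, and of -0.28 without the a libraries, against -0.62 and -0.34 for the 78 genes; the part of transcript length was not tested.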

How the results depend on the processing

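Across 26 alternatives, 3594 of 4030 values of named genes kept their direction and side of the threshold. All 14 that reversed did so with spike-ins as library sizes without DTP_TSA a. They were RPLP2 at 24 h of erlotinib (-0.28); RPS7 (0.30), RPL3 (0.34), RPL5 (0.38), RPL22 (0.40), RPS6 (0.44), RPL10 (0.51), RPSA (0.56), RPL11 (0.63), RPS4X (0.56) and RPL39L (0.43) with carboplatin; and RPL39 (0.085), RPS4X (0.044) and RPS27A (0.15) in DTP against erlotinib_24h cells. The cause was not tested.

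On spike-in scale the calls numbered 63 at 24 h, 77 with carboplatin, 1 in DTP_TSA against DTP, 12 in DTP against erlotinib_24h cells and 16 for the difference of TSA effects. The log2 ratio of reads per spike-in read was -0.47 for DTP, -0.38 for erlotinib_24h, 0.62 for carboplatin_72h, -0.12 for DTP_TSA against DTP and -0.095 for DTP against erlotinib_24h. With only the groups compared the calls were 61 at 24 h, 40 with carboplatin, 7 in parental_TSA and 70 in DTP_TSA; without the a libraries of both TSA groups 49, 37, 24 and 76. DESeq2 gave 16 in DTP_TSA, its size factors 15 there and 5 with carboplatin, and the filter of 1 CPM in 3 libraries 5 in DTP_TSA.

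Relative to the set, the groups alone gave 59 (DTP), 60 (24 h), 39 (carboplatin), 1 (parental_TSA), 10 (DTP_TSA) and 50 (DTP against erlotinib_24h), and leaving out both a libraries 58, 58, 44, 26, 14 and 37. Without the low-count filter it was 19 (DTP), 11 (parental_TSA), 3 (DTP_TSA) and 13 (DTP against erlotinib_24h), and with DESeq2 33 (carboplatin) and 9 (DTP_TSA).

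Leaving out 1 library each, calls ranged over 62 to 76 (DTP), 13 to 45 (24 h), 5 to 35 (carboplatin), 16 to 75 (parental_TSA), 19 to 74 (DTP_TSA), 65 to 77 (DTP against erlotinib_24h) and 69 to 78 (difference). Relative to the set they ranged over 20 to 50, 28 to 50, 12 to 38, 9 to 21, 3 to 10 and 12 to 35 in the first 6. Log2 ratios of the share ranged from -0.44 to -0.42, 0.071 to 0.094, 0.10 to 0.13, 0.24 to 0.55, -0.10 to -0.076 and -0.52 to -0.50.

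With the replicate letter as a block the calls were 71, 19, 9, 43, 40, 72 and 74, and relative to the set 31, 36, 20, 17, 4 and 20; the labels state no pairing by letter, and same-letter deviations correlated at -0.203 to 0.258, with all 3 letters over 0.1 in no comparison. The smallest library was DTP_TSA a with 32139343 gene reads.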
